A study of Mus musculus with 6 samples.

Results

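*Malat1*, *Neat1*, *Kcnq1ot1*, *Tug1*, *Firre*, *Airn* and *Pvt1* are long noncoding RNAs that stay largely in the nucleus. They were picked from the count table by gene symbol, matched to the gene identifier without its version, and make up 7 of its 47069 genes. All 7 had counts in every library and passed the filter on low counts. Levels are CPM, the counts of a gene scaled to 1000000 counts in its library. The symbols were chosen from earlier results on the contrast of RNA-Best with fresh libraries, that is with the log2 fold changes of these RNAs already known, so their levels and fold changes are given here with their errors and without a test.

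The libraries came from LβT2 cells, a mouse gonadotrope line derived from pituitary tumours of mice that carry SV40 T antigen under the *Lhb* promoter. Cells at passage 14 were all exposed to 2 nM gonadotropin-releasing hormone (GnRH) for 40 min. In the fresh group (n = 3 libraries) they were then lysed directly, and in the RNA-Best group (n = 3 libraries) they were kept for 4 days or longer in the preservative RNA-Best, at 4 °C, before lysis. Every group had thus received GnRH, and untreated cells were not analysed here. The mRNA kit selects polyadenylated RNA, and the sources used here do not say whether reads were counted by strand. Libraries of the fresh group held between 14477304 and 47438746 counts and those of the RNA-Best group between 4909418 and 11999363, so that depth and group cannot be told apart. No source names separate cultures for the libraries, so n counts libraries, and their spread may be technical. In bulk RNA, a change in how many cells express a gene cannot be distinguished from a change in RNA per cell. Of 10 gonadotrope markers, *Fshb* had no count, and the list summed to between 3465 and 3499 CPM in fresh and between 2990 and 3059 CPM in RNA-Best libraries. *Cga* was at 1792 CPM or more in fresh and at 1448 CPM or less in RNA-Best libraries, and *Nr5a1* and *Pitx1* were also lower without overlap, while *Gnrhr*, the GnRH receptor, was between 109 and 125 CPM in fresh and between 159 and 173 CPM in RNA-Best libraries, and *Isl1* and *Foxl2* were also higher without overlap. Summed markers of the other pituitary, blood and fibroblast lists reached at most about 3 CPM in any library. The 3 endothelial markers summed to between 191 and 193 CPM in fresh and between 196 and 209 CPM in RNA-Best libraries, with *Cdh5* higher and *Pecam1* lower, and the part of this shift in the results was not tested.

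Long noncoding RNAs of this kind act as scaffolds or as regulators of chromatin close to where they are made. *Malat1* gathers in nuclear speckles, the bodies rich in splicing factors, and *Neat1* builds the paraspeckles next to them. *Kcnq1ot1* and *Airn* are transcribed from the paternal allele of imprinted domains and silence neighbouring genes in cis. *Tug1* binds Polycomb proteins and also reaches the cytoplasm. *Firre* comes from the X chromosome and is tethered to chromatin through repeats, and *Pvt1* lies downstream of *Myc*.

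*Malat1* and *Neat1* are neighbours on mouse chromosome 19 and share an unusual way of ending. For both, RNase P cuts the primary transcript at a tRNA-like fold, and the new end is protected by a triple helix of U-rich stretches with an encoded A-rich tract rather than by a poly(A) tail. The short form of *Neat1* instead ends at an ordinary polyadenylation signal. The sequences below are from GENCODE transcripts on GRCm38, 5′ to 3′ on the minus strand, and are shown because a poly(A)-selected library meets these RNAs at their ends. The first pair gives the 100 bases that end at the A-rich tract, with the runs of 11 or more bases that both windows hold in capitals.
Malat1 chr19:5795982-5796081: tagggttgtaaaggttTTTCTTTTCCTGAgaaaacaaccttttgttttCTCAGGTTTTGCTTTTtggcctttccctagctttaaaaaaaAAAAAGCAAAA
Neat1, long form, chr19:5824708-5824807: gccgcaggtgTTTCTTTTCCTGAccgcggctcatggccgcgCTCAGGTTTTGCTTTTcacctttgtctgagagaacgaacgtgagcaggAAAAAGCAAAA
Below are the 80 bases that follow the tract in *Malat1*, where the tRNA-like fold begins, and the last 100 bases of the short form of *Neat1*, with its polyadenylation signal in capitals.
Malat1 chr19:5795902-5795981: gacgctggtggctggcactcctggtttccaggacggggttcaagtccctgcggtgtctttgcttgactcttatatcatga
Neat1, short form, chr19:5842307-5842406: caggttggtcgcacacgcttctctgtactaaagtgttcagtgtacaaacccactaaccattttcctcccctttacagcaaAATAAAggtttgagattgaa

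The shared runs were 13, 16 and 11 bases long and stood in the same order in both RNAs. The 11-base A-rich run AAAAAGCAAAA occurred, on the transcript strand, in 0.778% of the longest transcripts of 27880 genes with a count. The annotated long *Neat1* transcript of 20771 bases stops at this run, whereas the annotated *Malat1* transcript of 6983 bases goes on for 292 bases past it. A polyadenylation signal, AATAAA or ATTAAA, stood within the last 50 bases of the annotated *Malat1* transcript, of the short *Neat1* form of 3004 bases and of the longest transcript of each of the other 5 genes. It was not found in that window of the long *Neat1* form. Among all genes with a count, 53.0% of longest transcripts held such a signal there. Because counts were taken per gene, the forms of *Neat1* were not separated.

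*Malat1* (ENSMUSG00000092341, chr19:5795690-5802672, minus strand) had 251, 327 and 307 CPM in fresh replicates 1 to 3 and 573, 560 and 550 CPM in RNA-Best replicates 1 to 3. The lowest RNA-Best library was 68.0% above the highest fresh library. Fresh libraries averaged 295 ± 39.6 CPM and RNA-Best libraries 561 ± 11.5 CPM (SD, n = 3 each). The log2 fold change of *Malat1*, RNA-Best over fresh, was 0.92 (standard error 0.05), which is 1.89-fold. Of 2557 tested genes with a mean of at least 100 CPM, 5 had a larger log2 fold change, namely *Zfhx4*, *Gucy2f*, *Kmt2a*, *Gm23935* and *Sned1*, named after their values were seen.

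*Neat1* (ENSMUSG00000092274, chr19:5824708-5845478, minus strand) had 306, 361 and 387 CPM in fresh and 428, 448 and 422 CPM in RNA-Best libraries. The groups did not overlap, but the gap between them was 8.92%. The means were 351 ± 41.2 and 432 ± 13.5 CPM (SD, n = 3 each), and the log2 fold change was 0.29 (standard error 0.05). The 2 neighbours thus changed places in counts. The count of *Malat1* divided by that of *Neat1* was 0.819, 0.907 and 0.793 in fresh and 1.34, 1.25 and 1.30 in RNA-Best libraries. This ratio is formed within a library and does not depend on its total. Together they took between 0.0557% and 0.0694% of the counts of a fresh library and between 0.0971% and 0.101% of those of an RNA-Best library.

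*Kcnq1ot1* (chr7:143203458-143296549, minus strand), which is 1 exon inside *Kcnq1* and antisense to it, had 10.7, 12.4 and 11.6 CPM in fresh and 16.4, 18.5 and 16.8 CPM in RNA-Best libraries. All RNA-Best libraries were higher than all fresh libraries, and the log2 fold change was 0.53 (standard error 0.09). *Airn* (chr17:12741311-12860136, plus strand), the other imprinted silencer, had 1.505, 1.62 and 1.24 CPM in fresh and 2.28, 4.28 and 2.75 CPM in RNA-Best libraries. These rest on 18 to 77 counts in a library, RNA-Best replicate 2 with 21 counts stood highest, and the log2 fold change was 0.90 (standard error 0.21). Counts of *Airn* cover 3597 bases of annotated exons, while its main product is an unspliced RNA over the whole locus, so reads in its introns were not counted.

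*Firre* (chrX:50555744-50635321, minus strand) had 56.5, 60.4 and 55.8 CPM in fresh and 89.1, 80.1 and 82.7 CPM in RNA-Best libraries, without overlap. The fitted log2 fold change of *Firre* was 0.53 (standard error 0.04). *Firre* also held parts of counts, for example 2288.67 in fresh replicate 1, although no annotated gene overlaps it, so some of its reads had been divided. *Tug1* (chr11:3639785-3649673, minus strand) was at nearly the same level throughout, with 92.3, 91.7 and 93.8 CPM in fresh and 91.4, 96.4 and 97.4 CPM in RNA-Best libraries. The groups overlapped, and the log2 fold change was 0.03 (standard error 0.04). *Pvt1* (chr15:62037986-62378096, plus strand) was the only one of the 7 that was lower in RNA-Best, with 7.18, 6.96 and 7.18 CPM in fresh and 6.61, 5.09 and 5.33 CPM in RNA-Best libraries. The fitted value was -0.32 on the log2 scale (standard error 0.12), from 25 to 64 counts in the RNA-Best libraries. 

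**Figure D1:**
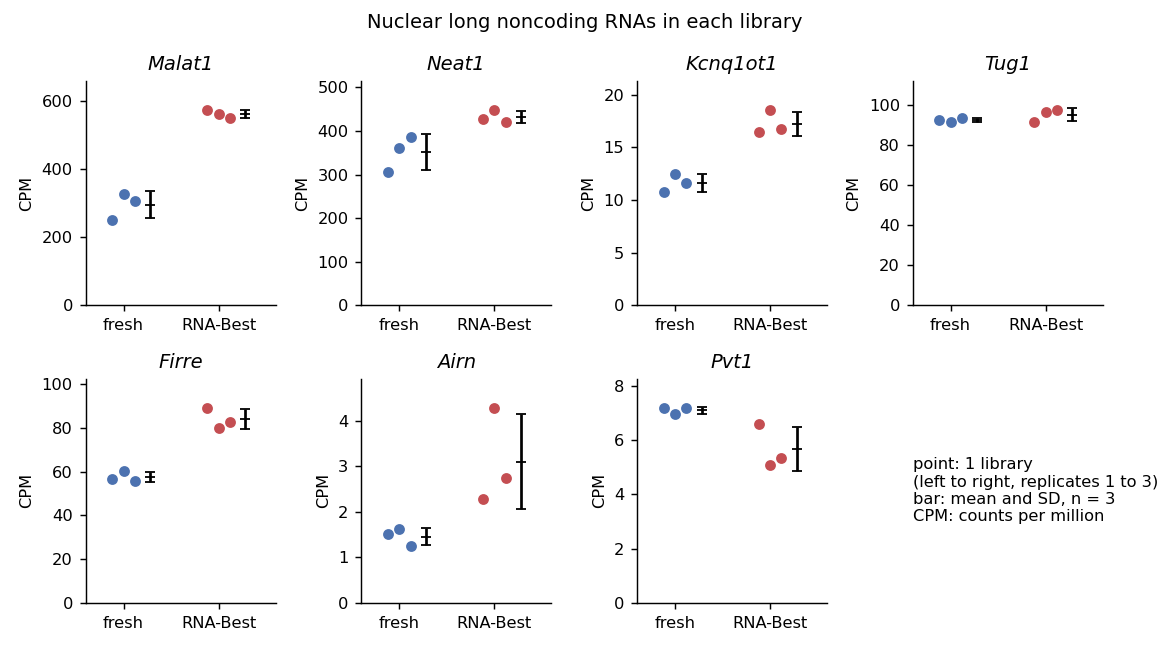
CPM of each RNA in every library, with its own axis from 0; points are libraries, in the order of replicates 1 to 3, and bars the mean and SD (n = 3). The RNA-Best points lie above all fresh points for *Malat1*, *Neat1*, *Kcnq1ot1*, *Firre* and *Airn*, overlap them for *Tug1* and lie below them for *Pvt1*.

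In edgeR's fit over 14736 genes, 50.8% of all genes had an adjusted p under 0.05, 26.0% higher and 24.8% lower in RNA-Best, and in 57.5% the groups did not overlap in CPM (30.4% higher and 27.1% lower). Of the 7 RNAs, 6 were on that side of the threshold, 5 higher and 1 lower, and in the same 6 the groups did not overlap. Nothing is read from this count, since the RNAs were chosen with this contrast known. *Pvt1* crossed back over the threshold without RNA-Best replicate 2 (log2 fold change -0.28), without RNA-Best replicate 3 (-0.24), after thinning all libraries to 4909268 counts (-0.07) and with the Wald test of DESeq2 (-0.32). After the same thinning, which sets all libraries to 1 depth, *Malat1* was at 0.89 and *Neat1* at 0.31.

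Exonic length moved with the groups. The median log2 fold change rose from -0.22 in 1566 tested genes of up to 1 kb over 0.13 in 4252 genes of 5 to 10 kb to 0.45 in 99 genes over 20 kb. *Neat1*, with 20.8 kb, and *Kcnq1ot1*, with 93.1 kb of exon, belong to the longest class, whose quartiles were 0.31 and 0.63, and *Malat1*, *Pvt1*, *Firre* and *Tug1* to that of 5 to 10 kb. With an offset for exonic length in each library, *Malat1* kept a log2 fold change of 0.78 (standard error 0.05), *Airn* of 0.95 (standard error 0.21) and *Firre* of 0.34 (standard error 0.04). *Neat1* turned to -0.18 (standard error 0.05), *Kcnq1ot1* to -0.33 (standard error 0.08) and *Tug1* to -0.21 (standard error 0.04), and *Pvt1* went to -0.46 (standard error 0.12). In that fit 38.3% of all genes were called, 17.9% higher and 20.4% lower, against all 7 of these RNAs, 3 higher and 4 lower, from which again nothing is read. The direction of all 7 in this fit is relative to genes of like length, and for *Neat1*, *Kcnq1ot1* and *Tug1* it is opposite to that without the offset. Only 3 tested genes were as long as *Kcnq1ot1* or longer, so its offset rests on few genes. Among the genes with at least 100 CPM, 2 exceeded *Malat1* after the offset, *Sned1* and *Gm23935*. With an offset for GC content, *Tug1* had -0.12 and passed the threshold as lower, and the other 6 kept their sign. The part of length in these values was not tested further, since read positions along the RNAs were not analysed here.

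**Figure D2:**
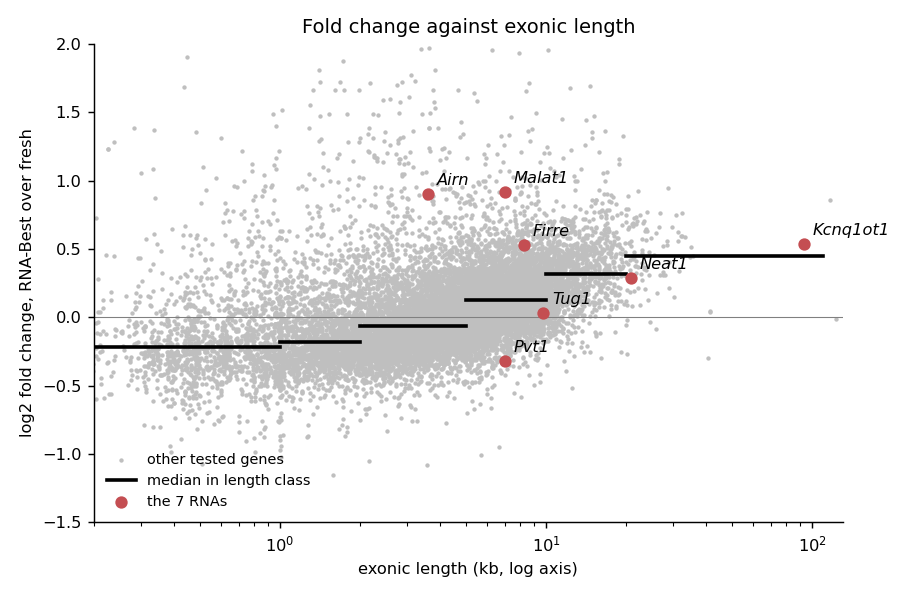
Log2 fold change, RNA-Best over fresh, against exonic length in kb on a log axis for tested genes (grey), with the median of 6 length classes (black) and the 7 RNAs (red); 134 genes lie outside the axes. *Malat1* at 0.92 and *Airn* at 0.90 stand far over the median of their classes, *Kcnq1ot1* at 0.53 is within the quartiles of its class, and *Neat1* at 0.29 and *Pvt1* at -0.32 are below those of theirs.

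**Figure D3:**
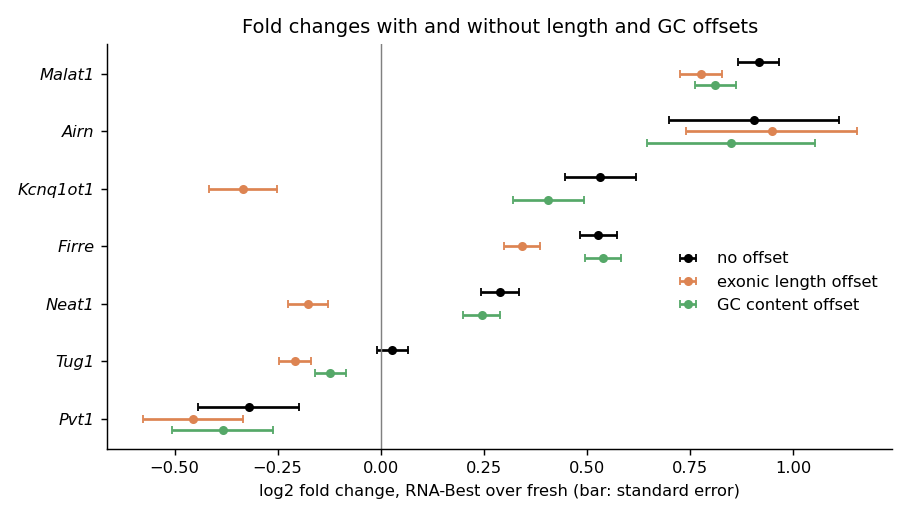
Log2 fold change and standard error of each RNA without an offset (black), with a length offset (orange) and with a GC offset (green). *Malat1*, *Airn* and *Firre* stay above 0 in all 3 fits, *Pvt1* stays below 0, and the length offset moves *Kcnq1ot1*, *Neat1* and *Tug1* below 0.

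Levels of different RNAs were compared as CPM per kb of exon, which for *Neat1* is the length of its long form. On that length *Malat1* led with 42.3 ± 5.67 in fresh and 80.3 ± 1.65 in RNA-Best libraries (SD, n = 3 each), followed by *Neat1* with 16.9 ± 1.98 and 20.8 ± 0.648. In fresh libraries *Tug1* followed with 9.51 ± 0.111, *Firre* with 6.98 ± 0.302, *Pvt1* with 1.02 ± 0.0186, *Airn* with 0.405 ± 0.0540 and *Kcnq1ot1* with 0.125 ± 0.00930 (SD, n = 3), and no neighbours in this order overlapped in their libraries. In RNA-Best libraries *Firre*, with 10.2 ± 0.561, stood above *Tug1*, with 9.77 ± 0.330, and *Airn*, with 0.863 ± 0.290, above *Pvt1*, with 0.812 ± 0.117 (SD, n = 3), and the libraries of both pairs overlapped. Per kb on the same lengths, *Malat1* was 2.36 to 2.70 times *Neat1* in fresh and 3.72 to 3.98 times in RNA-Best libraries. If all *Neat1* counts came from its short form of 3004 bases, its level would be 117 in fresh and 144 in RNA-Best libraries, above *Malat1*, so the order of these RNAs rests on a mixture of forms that was not measured. *Kcnq1ot1*, with its single long exon, was the lowest of the 7 per kb in both groups although *Airn* and *Pvt1* had fewer counts.

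**Figure D4:**
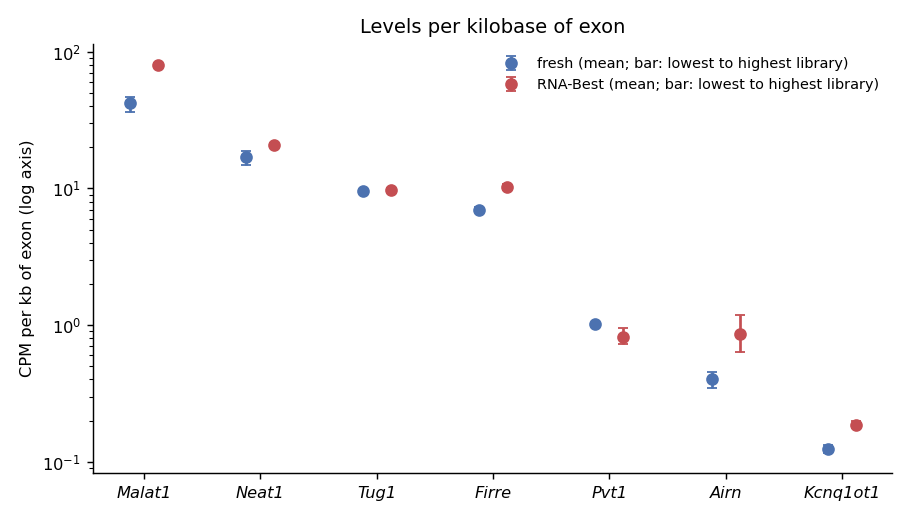
CPM per kb of exon on a log axis for each RNA in fresh (blue) and RNA-Best (red) libraries; points are means and bars run from the lowest to the highest library (n = 3). With *Neat1* divided by its long form, *Malat1* is highest and *Kcnq1ot1* lowest in both groups, and the bars of *Airn* and *Pvt1* overlap in RNA-Best.

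A measure that does not use the contrast is the spread among libraries of one group. In the fresh libraries *Malat1* had a coefficient of variation of 13.4% and *Neat1* of 11.7%, the highest and the next highest of 2480 tested genes with a mean of at least 100 CPM there, followed by *Vcl* with 10.9%. Fresh replicate 1 was the lowest for both RNAs, while replicate 2 was highest for *Malat1* and replicate 3 for *Neat1*. The median of genes within 2-fold of their level was 2.02% around *Malat1* and 2.01% around *Neat1*. In the RNA-Best libraries the values were 2.05% for *Malat1* and 3.11% for *Neat1*, ranks 1694 and 1003 of 2587 genes. This comparison was chosen after the values were seen and is a description with n = 3 libraries a group. *Tug1*, at 1.17% in fresh and 3.37% in RNA-Best libraries, varied little in either. Without fresh replicate 1 the log2 fold change of *Malat1* was 0.80 and that of *Neat1* 0.19, the lowest over the 6 fits that leave out a library.

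The genes whose log2(CPM + 1) ran most like that of *Malat1* over the 6 libraries were *Nefh*, a neurofilament subunit, *Vamp1*, a synaptic vesicle protein, and *Rcor3*, a corepressor, each with Pearson r = 0.998 among 10186 genes of at least 10 CPM. For *Neat1* they were *Gm13648* with r = 0.993, *Adora1*, an adenosine receptor, with r = 0.985 and *Wdr35*, a ciliary transport gene, with r = 0.978. The 6 points fall into the 2 groups, so these values mostly restate the contrast, and they are given as a description. Of the 10186 genes, 1995 had r over 0.9 with *Malat1* and 158 with *Neat1*.

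A further list held 34 long noncoding RNAs known as nuclear, imprinted or hosts of small RNAs, not all of which stay in the nucleus. Of these, 31 were matched and 14 tested, and 7 were higher, 1 was lower and 6 were not called by edgeR at an adjusted p under 0.05. Over all tested genes 26.0% were higher and 24.8% lower, and 50.8% called stands against 57.1% here. The median log2 fold change of the list was 0.29, against -0.0074 over all tested genes. The largest were *2900097C17Rik*, the mouse *Norad*, which binds Pumilio proteins and is found largely in the cytoplasm, with 14.6 ± 1.65 CPM in fresh and 27.9 ± 2.80 CPM in RNA-Best libraries (SD, n = 3, log2 fold change 0.84, edgeR adjusted p = 2.80e-11), *Jpx*, an activator of *Xist*, with 0.84 (edgeR adjusted p = 5.89e-05), and *Dleu2*, host of microRNAs, with 0.70 (edgeR adjusted p = 8.91e-13). *Snhg1*, a host of small nucleolar RNAs, was the gene that was lower (log2 fold change -0.17, edgeR adjusted p = 0.0333), with overlapping groups. With the length offset 6 were higher and 1 lower, and the median was 0.24. That is 50% called and 7.14% lower, beside 38.3% called, 17.9% higher and 20.4% lower over all genes. *Snhg1* was then not called (-0.09, edgeR adjusted p = 0.331), and the lower gene was *Snhg14* (-0.34, edgeR adjusted p = 0.00128), at 0.18 and not called without the offset. The count of 8 calls rested in part on RNA-Best replicate 1, without which it was 5, all higher, or 35.7% beside 43.3% of all genes. When libraries were thinned to equal depth 5 of 12 were called, or 41.7% beside 41.4% of all genes. *Meg3*, *Rian*, *Mirg*, *Miat*, *Hotair* and 4 others had no count, and a zero allows as much as 3 counts, or 0.0632 CPM at the greatest and 0.611 CPM at the least depth (counting error only). Over the long noncoding gene classes of the annotation with the 7 RNAs left out, 753 genes were tested, of which 25.5% were higher and 6.24% lower, with a median of 0.11. After the length offset 29.0% were higher and 2.66% lower, with a median of 0.21. Protein-coding genes were higher in 28.1% and lower in 25.7%, and with the length offset in 17.2% and 23.4%.

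Of 30 listed genes for paraspeckle proteins, which assemble on *Neat1*, 29 were tested, 18 were higher, 1 was lower and 10 were not called, with a median log2 fold change of 0.10. That is 65.5% called, against 50.8% of all genes. *Zfp335* had the largest value, 0.34 (edgeR adjusted p = 1.15e-05), followed by *Rbm4b*, an RNA-binding splicing regulator, with 0.24 (edgeR adjusted p = 0.000140) and *Ss18l1*, a chromatin remodeller subunit, with 0.23 (edgeR adjusted p = 0.00102). *Dazap1*, an RNA-binding protein, was lower by a log2 fold change of -0.11 (edgeR adjusted p = 0.0333). Of the proteins that *Neat1* cannot build paraspeckles without, *Nono* was at -0.0046 (edgeR adjusted p = 0.900), *Sfpq* at 0.10 (edgeR adjusted p = 0.00393) and *Rbm14* at 0.02 (edgeR adjusted p = 0.769). With the length offset 10 were higher and 9 lower, and the median was 0.0010, so the balance of directions in this list depended on the offset. In that fit 65.5% of the list was called, beside 38.3% of all genes, and 31.0% was lower, beside 20.4%. *Rbm4b* (0.0010, edgeR adjusted p = 0.991) and *Dazap1* (-0.02, edgeR adjusted p = 0.757) were then not called, while *Zfp335* (0.31) and *Ss18l1* (0.23) were.

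Of 30 tested genes whose products make the *Malat1* end or degrade nuclear RNA 6 were higher, 11 lower and 13 not called, with a median of -0.09. The 56.7% called is near the 50.8% of all genes. With the GC offset it was not near, since 76.7% were called beside 47.7% of all genes, with 6 higher, 17 lower and a median of -0.18, and 56.7% were lower beside 22.8% of all genes. Among 11 protein subunits of RNase P, the enzyme that frees the *Malat1* end, 7 were lower and 4 not called, beside 24.8% lower over all genes, from *Rpp14* at -0.36 (edgeR adjusted p = 1.39e-06) to *Rpp25* at 0.25 (edgeR adjusted p = 0.394). These are short genes, with a median of 2.30 kb of exon, and with the length offset 3 were lower, beside 20.4% over all genes. *Elac2*, the RNase Z that trims the tRNA-like piece, was at -0.07 (edgeR adjusted p = 0.207), and *Mettl16*, a methyltransferase that binds the triple helix, at -0.02 (edgeR adjusted p = 0.714, and -0.36 with the length offset, where it was called lower). Of 10 tested genes of the RNA exosome 1 was higher, 4 were lower and 5 not called, beside 26.0% higher and 24.8% lower over all genes. With the length offset 2 were higher and 4 lower, beside 17.9% and 20.4%. *Exosc4* (-0.38, edgeR adjusted p = 1.03e-05) and *Exosc5* (-0.38, edgeR adjusted p = 4.39e-08) were among the lower genes, and the nuclease *Dis3* (0.35, edgeR adjusted p = 2.86e-06) was the higher gene without the offset. The largest value of the list was that of *Zfc3h1*, which hands polyadenylated nuclear RNA to the exosome, with 24.6 ± 2.03 CPM in fresh and 38.1 ± 1.58 CPM in RNA-Best libraries (SD, n = 3, log2 fold change 0.61, edgeR adjusted p = 1.21e-09), and it stayed at 0.44 with the length offset. The poly(A) polymerase *Tent4b* was higher as well (0.28, edgeR adjusted p = 4.57e-05).

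Of 22 tested genes for chromatin proteins that bind these RNAs 9 were higher, 4 lower and 9 not called, with a median of 0.05. The 59.1% called is near the 50.8% of all genes. With the GC offset it was not near, since 81.8% were called beside 47.7% of all genes, with 12 higher and 6 lower. In that fit 27.3% were lower beside 22.8% of all genes. *Dnmt3a*, a DNA methyltransferase, had a log2 fold change of 0.34 (edgeR adjusted p = 3.35e-10). Of 8 tested genes of Polycomb repressive complex 2 and its cofactors 4 were higher, 2 lower and 2 not called, and 2 were higher and 2 lower with the length offset. Over all genes 26.0% were higher and 24.8% lower, and 17.9% and 20.4% with the length offset. The cofactors *Mtf2* (0.33, edgeR adjusted p = 2.21e-07) and *Jarid2* (0.27, edgeR adjusted p = 0.00313) were among the higher genes, and the histone-binding subunits *Rbbp4* (-0.08, edgeR adjusted p = 0.0445) and *Rbbp7* (-0.08, edgeR adjusted p = 0.0199) were the lower genes, with overlapping groups. Of 6 tested genes of Polycomb repressive complex 1, 4 were not called, and *Cbx8* (-0.24, edgeR adjusted p = 0.000206) and *Ring1* (-0.19, edgeR adjusted p = 0.000820) were lower, beside 24.8% lower over all genes. Over the whole list 4 were higher and 7 lower with the length offset, where *Dnmt3a*, *Jarid2* and *Rbbp7* were not called. That is 50% called, beside 38.3% of all genes in that fit, and 31.8% lower, beside 20.4%.

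Of 21 tested genes listed for the 7 loci 6 were higher, 6 lower and 9 not called, with a median of 0.05. The 57.1% called is near the 50.8% of all genes. With the length offset 4 were higher and 8 lower. That is 57.1% called, beside 38.3% of all genes in that fit, and 38.1% lower, beside 20.4%. *Igf2r*, a maternally expressed receptor that *Airn* silences and overlaps on the opposite strand over 28354 bases, was higher, as was *Airn* (34.9 ± 1.51 CPM in fresh and 45.7 ± 1.42 CPM in RNA-Best libraries, SD, n = 3, log2 fold change 0.36, edgeR adjusted p = 3.99e-07, and 0.14 with the length offset). Their annotated exons do not overlap. *Kcnq1*, whose exons share 121 bases with *Kcnq1ot1*, had 3 counts in all 6 libraries together, and *Cdkn1c* and *Phlda2*, maternally expressed genes that *Kcnq1ot1* silences, had 6 and 3. Farther along that domain *Tssc4* (-0.33, edgeR adjusted p = 1.58e-08) and *Cd81* (-0.25, edgeR adjusted p = 1.33e-08) were lower, and with the length offset they were at -0.18 and -0.16, beside -0.33 for *Kcnq1ot1* in that fit. *Morc2a*, which shares 483 exonic bases with *Tug1* on the opposite strand, was higher (0.23, edgeR adjusted p = 1.44e-05, and 0.12 with the length offset). The strand setting of the counting is not given, so it is not known how reads in the shared stretch were assigned. *Myc*, next to *Pvt1*, had 7.08 ± 0.388 CPM in fresh and 7.79 ± 0.883 CPM in RNA-Best libraries (SD, n = 3 each, log2 fold change 0.13, edgeR adjusted p = 0.356). Beyond them *Zfp280c*, listed for the *Firre* locus (0.42, edgeR adjusted p = 1.64e-05), and *Asap1*, listed for the *Pvt1* locus (0.26, edgeR adjusted p = 5.85e-06), were higher. *Selenom*, listed for the *Tug1* locus, was lower (-0.35, edgeR adjusted p = 3.37e-07). How far these genes lie from the RNAs was not measured. Under the length offset *Asap1* was at 0.10 and not called (edgeR adjusted p = 0.0554), *Zfp280c* at 0.36 and *Selenom* at -0.18. Small RNA genes of the annotation inside *Malat1* and *Neat1* had no count, and *Mas1*, inside *Airn*, had 1 count in all libraries together. The pseudogenes *Gm7162* within *Airn* and *H2afy3* within *Pvt1*, both on the opposite strand, had 46.5 and 16.5 counts in all.

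**Figure D5:**
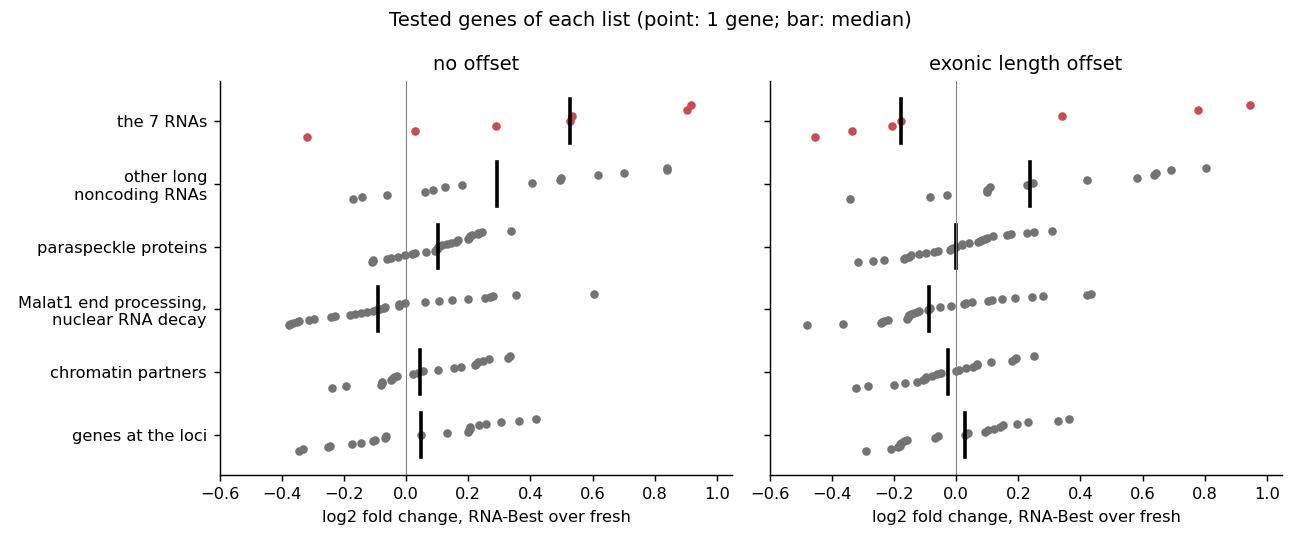
Log2 fold change, RNA-Best over fresh, of each tested gene (points) in the 7 RNAs and the 5 other lists, without (left) and with (right) a length offset; black bars are medians. The median of the 7 RNAs moves from 0.53 to -0.18 with the offset, that of the other noncoding RNAs from 0.29 to 0.24, and those of the 4 protein-coding lists lie between -0.09 and 0.10 in both.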

How the data were processed

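The authors aligned 101 bp single reads to GRCm38 with STAR 2.5.1b and counted them per gene with featureCounts 1.5.0-p1 and GENCODE M8. The values that the authors deposited are estimated counts per gene without scaling to depth. In each library 9.36% to 16.3% of them differed from the nearest integer by over 0.001, so some reads had been divided, and the strand and sharing settings are not given in the sources used here. Genes with near copies, overlaps or antisense partners are therefore uncertain.

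CPM used column totals and deposited values. Counts were rounded and analysed in R 4.3.3 with the quasi-likelihood test of edgeR 4.0.16 (TMM scaling, factors 0.994 to 1.01, filterByExpr with minimum count 10) and Benjamini-Hochberg adjustment over the 14736 genes that passed. The standard error is the log2 fold change divided by the root of the F statistic. Limma 3.58.1 (voom) and DESeq2 1.42.0 (Wald test, size factors) were alternatives, with column totals alone, no filter, a replicate block, loess offsets (span 0.5) for length or GC content (14677 genes with values), thinning and leaving out each library. The common coefficient of variation was 2.14%. In counts simulated for this comparison over 14736 genes, recovery was 63.3% at a 1.2-fold and 96% at a 2-fold change, with 7 false calls. The simulation gave every gene the same small dispersion and changed only few genes. It therefore does not measure the false calls in these data.

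Positions, lengths and sequences came from GENCODE M21 on the same assembly, which matched 46488 genes with a GC content. Lengths of noncoding genes may differ from those of M8, with which reads were counted, and this touches levels per kb and the length offset. The library pairs of a group differed by more than sampling noise (chi-square per gene 1.10 to 2.21). The study's own test used limma-voom with a limit on the false discovery rate and a fold change threshold. No fold change threshold was applied here. The 7 RNAs and all gene lists were chosen with earlier results of these data known. From each list the text names the 3 called genes highest and the 3 lowest in log2 fold change whose groups do not overlap, overlapping genes at the loci, and the 3 genes most like *Malat1* and *Neat1*. Other genes were named after their values were seen (*Nono*, *Sfpq*, *Rbm14*, *Snhg1*, *Snhg14*, *Elac2*, *Mettl16*, *Rpp25*, *Rbbp4*, *Rbbp7*, *Cdkn1c*, *Phlda2*, *Myc* and the markers for their known roles or their place in a count).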

Additional observations from a re-analysis of the deposited data

How the results depend on the processing

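*Malat1*, *Airn*, *Firre* and *Pvt1* kept their direction under all 16 alternatives, with log2 fold changes of 0.78 to 1.01, 0.73 to 1.29, 0.34 to 0.58 and -0.46 to -0.07. *Neat1* and *Kcnq1ot1* kept it under 14 and *Tug1* under 12. With the length offset *Neat1* was -0.18, *Kcnq1ot1* -0.33, *Tug1* -0.21 and *Firre* 0.34, and with the replicate block and the length offset together they were -0.18, -0.33, -0.22 and 0.35. The GC offset gave 0.41 for *Kcnq1ot1* and -0.12 for *Tug1*, and no filter gave -0.019 for *Tug1*. Thinning gave 0.65 for *Kcnq1ot1*, 1.29 for *Airn* and -0.075 for *Pvt1*, and 5 of the other noncoding RNAs called instead of 8, with 12 tested instead of 14 (41.7%, beside 41.4% of all genes). Leaving out single libraries gave 5 to 8 such calls and 5 to 6 calls among the 7 RNAs. Where no cause is stated, the cause was not tested. The counts of calls in the other lists and over all genes stayed within 1.5 times under every alternative, both directions together.

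Dividing by the longest transcript instead of all exons gave, in CPM per kb, 13.8 fresh and 14.2 RNA-Best for *Tug1*, 10.4 and 15.1 for *Firre*, 1.06 and 2.26 for *Airn*, and 2.14 and 1.71 for *Pvt1*, since the longest transcript of these genes covers only part of their exons. *Airn* then stood above *Pvt1* in RNA-Best, and *Firre* above *Tug1*, as before. The length of the short form of *Neat1*, an alternative chosen after seeing the data, gave 117 fresh and 144 RNA-Best and put *Neat1* above *Malat1*.

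Deviations of equally numbered libraries from their group means correlated at -0.0084, 0.012 and -0.0077. These values show no pairing by replicate number, but cannot exclude that equally numbered libraries were handled together. With a replicate block 7472 genes were called, 3813 higher and 3659 lower in RNA-Best, and *Malat1* had 0.93. Depth limits *Airn* and *Pvt1* most, with 18 to 77 and 25 to 330 counts in a library.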
